A study of Mus musculus with 6 samples.

Results

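The collagen chain genes were taken as all genes whose symbol on the array platform has the form Col, a type number, the letter a and a chain number. Only probe sets that name 1 gene were used, and each gene was read from its brightest probe set, judged over all 6 arrays. This gave 44 collagen chain genes among 22180 genes measured: 11 of fibrillar collagens, 8 of basement membrane collagens and 25 of other collagens. The study compared 3 mammary tumors (tumors 23, 24 and 25) that arose several months after Ad-K8-Cre, an adenovirus that expresses Cre recombinase from a keratin 8 promoter, was injected into the ducts of Trp53L/L;Brca1L/L females; the labels call these tumors null for both genes. Their counterparts were 3 samples of luminal mammary cells of wild-type genotype (replicates 1, 2 and 4), which were sorted for yellow fluorescent protein from Rosa26-Stop-YFP females 10 to 14 days after the same injection. Both groups thus share the virus, and Cre acted first in cells with an active keratin 8 promoter. The labels describe a sort for the wild-type cells alone, so tumor tissue was compared with sorted cells. No age is given. The wild-type samples came from different mice, whereas the labels leave unsaid whether any of the tumors shared a mouse, in which case the p-values would measure in part the spread within 1 animal.

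Collagens are secreted proteins of 3 chains wound into a triple helix, with glycine recurring regularly along each chain. Fibrillar types I, III and V form the cables of connective tissue and are made mainly by fibroblasts. Type IV forms the sheet-like network of basement membranes, which underlies the mammary epithelium and surrounds blood vessels, and types XV and XVIII sit in the same zone. Other types decorate fibrils (the FACIT collagens), form beaded filaments (type VI), short-chain networks (types VIII and X) or anchoring fibrils (type VII), or span the cell membrane.

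The values are log2 expression values that the authors normalized with RMA, and differences are tumor minus wild type on this log2 scale. The number of arrays limits the precision. Values per array are given in the order tumors 23, 24 and 25, then wild-type replicates 1, 2 and 4. To judge which chains were near background, the 95th percentile over 1105 olfactory receptor genes was computed per array, a choice made with the data known. This background mark was 3.24 to 3.45 on tumor arrays and 3.70 to 3.86 on wild-type arrays. Because the mark was lower on tumor arrays, lower tumor values near it cannot be told apart from this offset. Of the 44 chains, 30 lay above this mark on all 6 arrays and 6 (Col4a3, Col6a4, Col6a5, Col10a1, Col19a1 and Col28a1) lay under it on all 6. Of 8 luminal marker genes, 7 had lower means in tumors, 0 of them past the test, and Elf5 rose. The keratins Krt8 and Krt18 measured 7.76 to 9.41 and 7.47 to 10.18 in tumors, against 10.31 to 11.12 and 10.58 to 11.57 in wild-type cells. The fibroblast proteoglycan gene Dcn measured 7.11 to 9.16 in tumors, against 10.10 to 11.11 in the sorted wild-type cells. Of the 10 fibroblast markers, Dcn, Dpt, Thy1, Fbln1 and Mfap5 lay above the mark on all 6 arrays. By contrast, Pdgfra, Pdgfrb, Lum, Fap and Pi16 lay under it on 1 or 2 wild-type arrays. Lum also lay under it on 1 tumor array and Pi16 on 2.

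No collagen chain gene passed the test between tumors and wild-type cells. In limma with Benjamini-Hochberg adjustment over 22180 genes, 0 of 44 were called higher, where 2.52% of all genes were, and 0 were called lower, where 1.39% of all genes were (3.91% in either direction). At an unadjusted p under 0.05 in the same fit there were 8 of the 44 chains (18.2%), against 26.4% of all genes. The smallest adjusted p values were 0.102 for Col11a1 and 0.103 for Col12a1. Groups did not overlap, with tumors higher, for 5 chains (11.4%, where 14.0% of all genes did so), and with tumors lower for 13 (29.5%, where 22.4% did so; 36.4% of all genes were apart in either direction). Means were above those of wild-type cells for 20 of 44 chains (45.5%, against 41.7% of all genes). The lower background mark on tumor arrays is not taken into account in these counts.

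The tumors differed widely among themselves in several chains. The SD between the 3 tumors was larger than that between the 3 wild-type arrays for 30 of 44 chains (68.2%, against 51.5% of all genes). It was above 1 log2 unit for 8 chains (18.2%, against 5.30% of all genes), namely Col1a1, Col1a2, Col3a1, Col6a3, Col8a1, Col11a1, Col12a1 and Col17a1, and it was above 1 among wild-type arrays for 0 chains. These shares describe the 44 chains and were not tested. Of all genes 33.6% lay under the background mark on all 6 arrays, against 13.6% of the chains. The shares here and below thus compare sets of unlike expression level. Tumor 24 had 6 chains at least 1 log2 unit above every wild-type array (13.6%, where 5.81% of all genes were). They were Col1a1, Col1a2, Col3a1, Col5a2, Col12a1 and Col17a1. Tumor 25 had 6 as well (13.6%, where 8.99% of all genes were), namely Col2a1, Col4a1, Col4a2, Col9a1, Col11a1 and Col12a1. Tumor 23 had 3 (6.82%, where 7.15% of all genes were), namely Col4a6, Col11a1 and Col12a1. Only Col12a1 was in all 3 of these sets. In the other direction, Col8a1 lay at least 1 unit below every wild-type array in tumors 23 and 25 (1 of 44 chains in each, where 2.21% and 2.51% of all genes did so), and no chain did in tumor 24.

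**Figure D1:**
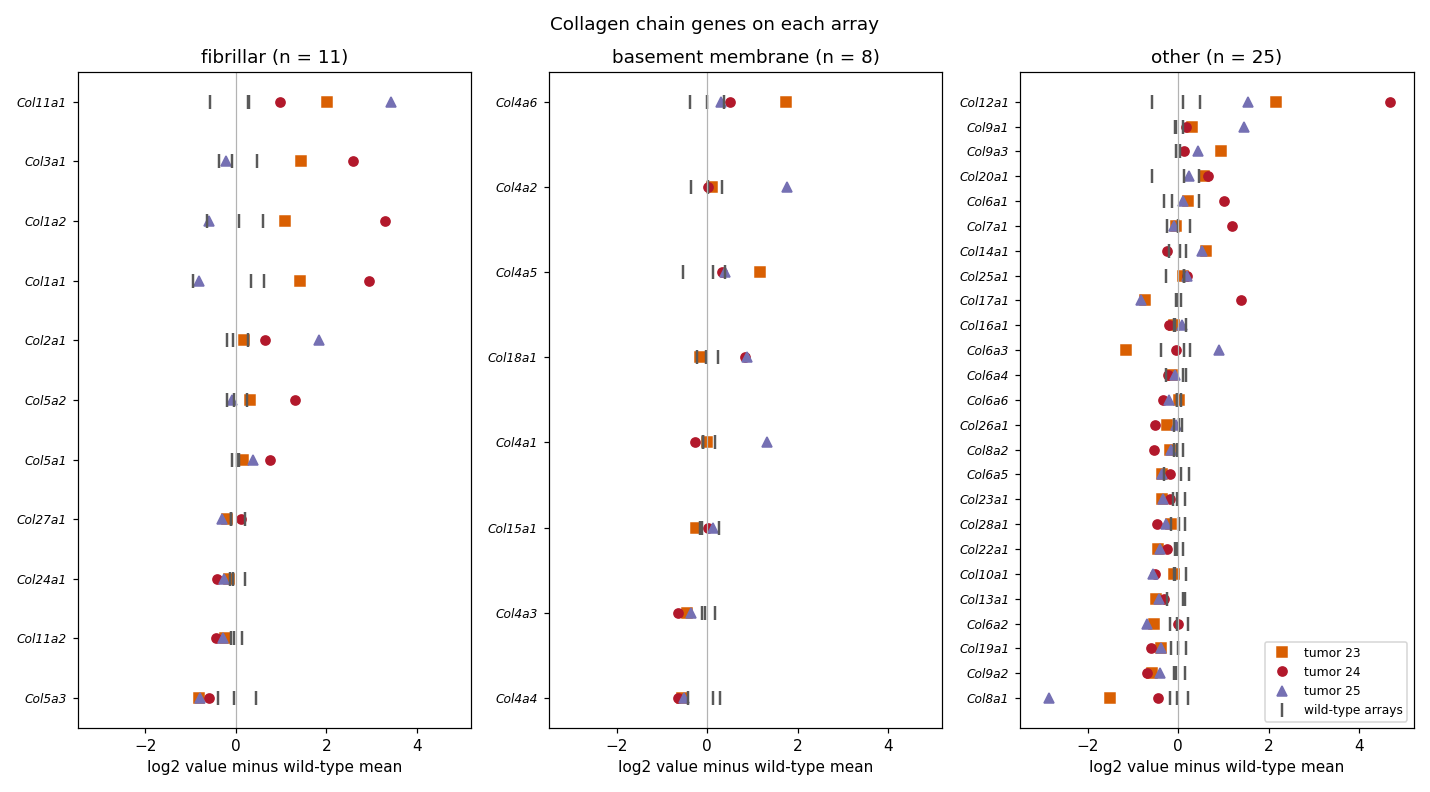
Each of the 44 collagen chain genes on each array, as the log2 value minus the mean of the 3 wild-type arrays, by class; coloured symbols are the 3 tumors and grey ticks the 3 wild-type arrays. Tumor 24 lies far right for Col1a1, Col1a2, Col3a1 and Col12a1, tumor 25 for Col11a1, Col2a1, Col4a1 and Col4a2, and tumor 25 far left for Col8a1.

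The chains of the most abundant fibril collagens, types I and III, were highest in tumor 24 and within the wild-type range in tumor 25. Col1a1, which encodes the major chain of type I collagen, measured 7.22, 8.74 and 4.98 in the tumors, against 6.13, 6.42 and 4.86 in wild-type cells. Its partner Col1a2 measured 6.08, 8.29 and 4.40 in the tumors, against 5.58, 5.05 and 4.34 in wild-type cells. The dimmer probe set of Col1a2 gave 3.45, 4.33 and 2.58 in the tumors, against 3.12, 2.89 and 2.75 (difference 0.53). On that probe set tumor 25 lay below every wild-type array, with tumor 25 and all wild-type arrays under the background mark. Col3a1, the single chain of type III collagen, measured 6.64, 7.78 and 4.98 in the tumors, against 5.66, 4.82 and 5.11 in wild-type cells. For all 3 genes tumor 23 was also above every wild-type array, while tumor 25 lay within the wild-type range, so the groups overlapped. The mean differences were 1.18 ± 0.94 (SE) for Col1a1, 1.27 ± 0.93 for Col1a2 and 1.27 ± 0.68 for Col3a1, with adjusted p values in limma of 0.431, 0.395 and 0.270. Without tumor 24 these differences were 0.295, 0.253 and 0.616, without tumor 25 they were 2.18, 2.20 and 2.02, and after housekeeping centring 0.551, 0.642 and 0.647. Without wild-type replicate 4, that of Col1a1 was 0.706. The mean difference of these chains thus rested on which tumors were included. The 95% interval for Col1a1 ran from -1.08 to 3.43, so these arrays allow both a lower and a higher mean in tumors. Between tumors 24 and 25 the distance was 3.76 log2 units for Col1a1, 3.88 for Col1a2 and 2.80 for Col3a1.

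The regulatory chains of type V, which nucleate type I fibrils, differed less. Col5a1 measured 5.01, 5.60 and 5.24 in the tumors, against 4.76, 4.87 and 4.93 in wild-type cells. All tumors were above all wild-type arrays, by 0.43 ± 0.20 (SE) in the mean (adjusted p of 0.230 in limma). Its dimmer probe set ran the other way, with a difference of -0.26, and lay under the background mark on every array but tumor 23. Col5a2, its partner in the fibril, measured 4.11, 5.10 and 3.71 in the tumors, against 4.04, 3.6 and 3.76 in wild-type cells, and ordered the tumors as type I and III did. Col5a3, another type V chain, was lower in all 3 tumors, at 4.39, 4.62 and 4.41, against 5.16, 5.64 and 4.81 in wild-type cells (-0.73 ± 0.25, adjusted p of 0.134). The 3 chains of type V thus differed in direction and 0 of them passed, but after housekeeping centring all 3 were lower (Col5a1 -0.195, Col5a2 -0.121 and Col5a3 -1.356) and Col5a3 passed (adjusted p of 0.0308 in limma). Without tumor 24, Col5a1 was 0.270 and Col5a2 0.108. The order tumor 24, then 23, then 25 held for 5 of the 11 fibrillar chains: Col1a1, Col1a2, Col3a1, Col5a2 and Col27a1.

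Col11a1, a chain of type XI collagen that is known from cartilage fibrils and is also made by activated fibroblasts, had the lowest adjusted p of the 44. It measured 6.49, 5.47 and 7.91 in the tumors, against 4.78, 4.75 and 3.92 in wild-type cells. All 3 tumors were above all wild-type arrays, by the most in tumor 25. Tumors averaged 6.62 ± 1.22 and wild-type cells 4.49 ± 0.49 (SD, n = 3 each). The difference was 2.14 ± 0.61 (SE), or 4.40-fold, its 95% interval ran from 0.67 to 3.6, and limma gave an adjusted p of 0.102. Over 15 alternatives its adjusted p ran from 0.0358 to 0.223, and it passed in 4: when dim genes were left out with either of 2 filters, after centring on housekeeping genes, and without tumor 24 (2.71, adjusted p of 0.0411). Its partner Col11a2 was lower in all tumors, at 3.59, 3.40 and 3.54, against 3.80, 3.97 and 3.73 in wild-type cells, with values close to the background mark.

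Col11a2 and, further on, Col2a1, Col7a1, Col8a2, Col9a2, Col9a3, Col10a1 and Col17a1 were picked after their values were seen. Col2a1, the chain of cartilage type II collagen, measured 4.34, 4.81 and 5.99 in the tumors, against 4.10, 4.42 and 3.96 in wild-type cells (0.89 ± 0.43, SE, adjusted p of 0.234). Tumor 25, highest for Col11a1, was highest here too, and tumor 23 lay within the wild-type range. Of 7 chondrocyte markers, Cnmd (chondromodulin, a cartilage matrix protein) rose. It measured 7.77, 5.13 and 8.05 in the tumors, against 3.06, 3.19 and 3.37 in wild-type cells (3.78 ± 0.74, SE; limma adjusted p of 0.0476). Comp, a cartilage matrix protein, measured 3.84, 3.66 and 5.45 in the tumors, against 3.07, 3.64 and 3.52 in wild-type cells, where it was under the mark, and was highest in tumor 25. Sox9, the chondrocyte regulator that epithelial cells also express, measured 7.23 to 8.47 in tumors and 7.21 to 8.32 in wild-type cells. The defining markers Acan, Matn1, Matn3 and Hapln1 lay under the background mark on all 6 arrays. Of the 7 markers, 5 were highest in tumor 25, among them Acan and Hapln1, which lay under the mark. The list means were 3.64 to 4.72 in tumors and 3.28 to 3.70 in wild-type cells. Cnmd had the largest difference of the 7, and the median difference was 0.03.

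The promoters of Col1a2 and Col11a1 are shown because these fibrillar chains ordered the tumors differently, Col1a2 being lowest and Col11a1 highest in tumor 25. Windows run from 250 bases before to 50 bases after the RefSeq start (build GRCm38.p6), and capitals mark CCAAT or its reverse complement ATTGG. Col1a2 is at chr6:4505368-4505667 on the plus strand and Col11a1 at chr3:114030290-114030589 on the plus strand.
Col1a2: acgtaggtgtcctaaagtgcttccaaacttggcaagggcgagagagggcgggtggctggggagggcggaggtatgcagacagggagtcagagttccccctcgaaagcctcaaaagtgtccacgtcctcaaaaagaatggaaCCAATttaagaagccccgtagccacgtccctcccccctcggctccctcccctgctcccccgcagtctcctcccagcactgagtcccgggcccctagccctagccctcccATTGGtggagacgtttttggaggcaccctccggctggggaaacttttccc
Col11a1: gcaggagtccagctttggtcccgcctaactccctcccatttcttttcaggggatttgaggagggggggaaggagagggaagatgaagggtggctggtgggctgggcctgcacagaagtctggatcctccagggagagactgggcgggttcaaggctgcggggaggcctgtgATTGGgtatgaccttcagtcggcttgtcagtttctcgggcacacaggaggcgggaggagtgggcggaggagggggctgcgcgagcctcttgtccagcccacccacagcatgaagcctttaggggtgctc
Col1a2 holds the motif at 2 positions and Col11a1 at 1. Windows were found for 35 of the 44 chains. CCAAT, a motif bound by NF-Y, was in 12 of them (34.3%), where 37.9% of the windows of 27025 genes hold it on either strand. GGGCGG or CCGCCC, the core of GC boxes, was in 22 of 35 (62.9%), where 35.9% of all windows hold it, and TATAAA or TTTATA was in 5 (14.3%, against 14.2%). Matches of different motifs were counted separately, whether or not they overlapped.

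**Figure D2:**
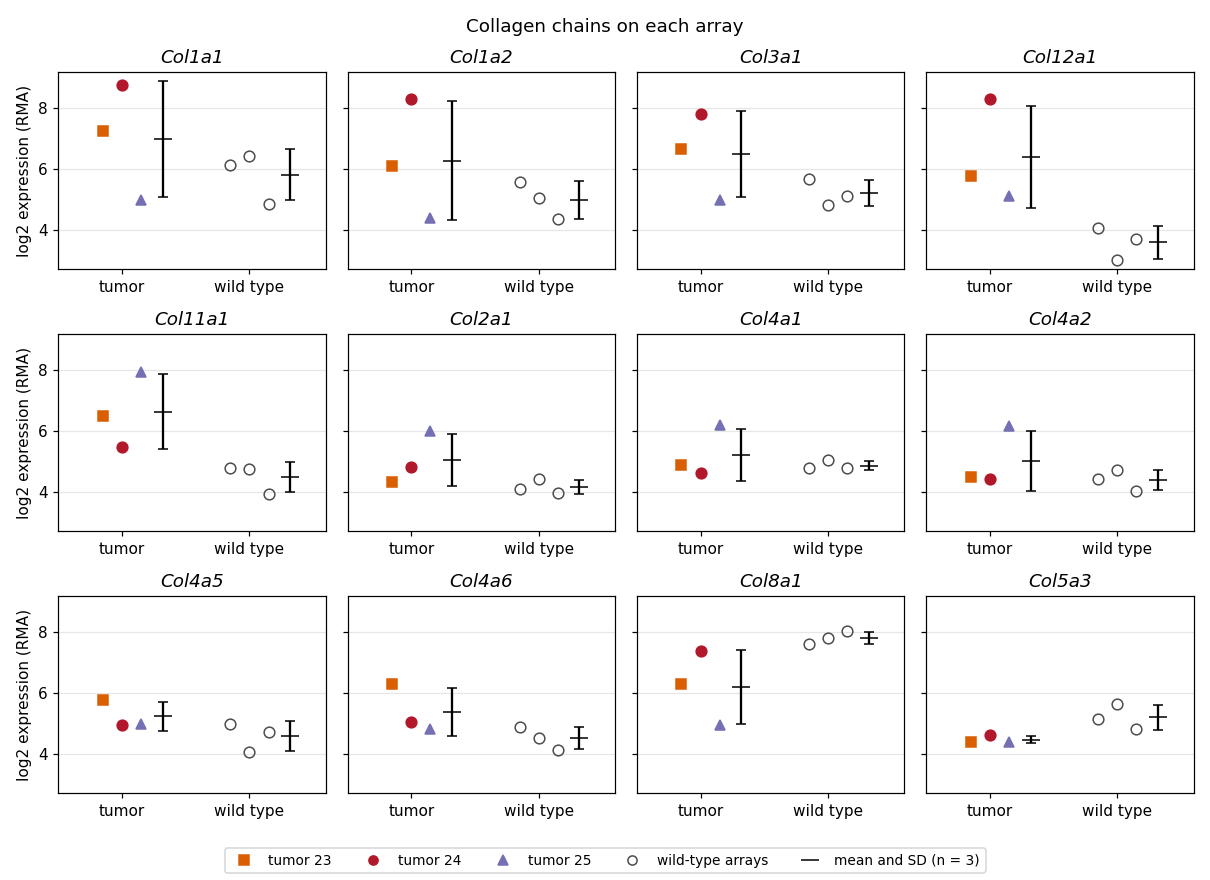
Log2 expression (vertical axis) of 12 collagen chains on each array, with tumors (filled symbols) left of wild-type cells (open circles), and bars for mean and SD of 3 arrays. Col1a1, Col1a2 and Col3a1 spread over 2.80 to 3.88 log2 units between tumors 24 and 25, while all tumors lie above all wild-type arrays for Col12a1 and Col11a1 and below them for Col8a1 and Col5a3.

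Of the 8 basement membrane chains, 5 had higher means in tumors and 3 lower, and 0 passed in either direction; after housekeeping centring the differences of Col4a1 (-0.27) and Col18a1 (-0.11) were negative too, and Col4a3 and Col4a4 passed as lower. The main network chains Col4a1 and Col4a2, which pair with each other in nearly all basement membranes, were high in tumor 25 alone. Col4a1 measured 4.87, 4.61 and 6.18 in the tumors, against 4.77, 5.05 and 4.78 in wild-type cells. Col4a2 measured 4.5, 4.41 and 6.16 in the tumors, against 4.41, 4.71 and 4.04 in wild-type cells. Tumors 23 and 24 lay near or within the wild-type range for both genes, and the differences were 0.35 ± 0.41 (SE) and 0.64 ± 0.49, with adjusted p values of 0.581 and 0.415 in limma. Without tumor 25, the difference of Col4a1 was -0.13 and that of Col4a2 0.068.

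The 2 genes are shown with their promoters because they were high in the same tumor and are read from a shared start region. Their RefSeq starts lie 21 bases apart on opposite strands, and their windows share 78 bases, given in capitals. Col4a1 is at chr8:11312777-11313076 on the minus strand and Col4a2 at chr8:11312555-11312854 on the plus strand, build GRCm38.p6.
Col4a1: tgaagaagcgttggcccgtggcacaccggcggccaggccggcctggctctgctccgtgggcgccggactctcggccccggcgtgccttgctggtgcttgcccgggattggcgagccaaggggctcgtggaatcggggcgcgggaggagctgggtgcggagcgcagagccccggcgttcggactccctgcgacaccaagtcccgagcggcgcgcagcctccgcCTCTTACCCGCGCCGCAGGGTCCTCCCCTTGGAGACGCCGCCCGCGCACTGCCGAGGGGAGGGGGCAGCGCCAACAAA
Col4a2: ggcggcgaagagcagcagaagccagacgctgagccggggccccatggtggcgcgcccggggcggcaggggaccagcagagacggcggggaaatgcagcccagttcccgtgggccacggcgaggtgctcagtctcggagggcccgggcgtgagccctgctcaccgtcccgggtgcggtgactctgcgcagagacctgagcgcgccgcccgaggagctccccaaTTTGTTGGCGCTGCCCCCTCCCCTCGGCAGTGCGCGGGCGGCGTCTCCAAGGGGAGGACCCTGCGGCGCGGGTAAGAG
The capitals in both windows are the same stretch read from either strand.

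Another head-to-head pair, Col4a5 and Col4a6, had starts 1343 bases apart on chromosome X. Both encode chains of the type IV network found under epithelia and smooth muscle, and both were highest in tumor 23 rather than 25. Col4a5 measured 5.77, 4.94 and 5.0 in the tumors, against 4.99, 4.06 and 4.74 in wild-type cells, a difference of 0.64 ± 0.33 (SE). Col4a6 measured 6.28, 5.04 and 4.83 in the tumors, against 4.89, 4.53 and 4.15 in wild-type cells, a difference of 0.86 ± 0.42. Adjusted p values in limma were 0.265 for Col4a5 and 0.238 for Col4a6, and the groups overlapped for each. Without tumor 23, the differences were 0.372 for Col4a5 and 0.408 for Col4a6; after housekeeping centring they were 0.012 and 0.231, and without wild-type replicate 2 that of Col4a5 was 0.369. Col4a3 and Col4a4, the chains of kidney, lung and inner ear membranes, had lower values in all 3 tumors, where the background mark was lower too. Col4a3 measured 2.59, 2.38 and 2.67 in the tumors, against 2.97, 3.19 and 2.91 in wild-type cells, all under the background mark. Col4a4 measured 3.09, 3.0 and 3.14 in the tumors, against 3.78, 3.23 and 3.94 in wild-type cells, and its tumor values were under the mark. The differences of Col4a3 and Col4a4, -0.476 and -0.572, were -0.243 and -0.381 after quantile normalization again.

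Among the multiplexins, whose C-terminal fragments include endostatin from type XVIII, Col18a1 measured 4.74, 5.74 and 5.77 in the tumors, against 4.67, 5.13 and 4.88 in wild-type cells (0.52 ± 0.32, SE, adjusted p of 0.325). Tumors 24 and 25 were above the wild-type range and tumor 23 within it, and the difference was 0.859 without tumor 23 and 0.343 without tumor 25. Col15a1 measured 4.11, 4.37 and 4.47 in the tumors, against 4.24, 4.60 and 4.20 in wild-type cells. Its difference was -0.02, with a 95% interval of -0.50 to 0.45.

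In the class of other collagens, Col12a1 had the largest positive difference of all 44 chains. It encodes a FACIT collagen that binds type I fibrils, and it measured 5.76, 8.27 and 5.12 in the tumors, against 4.06, 3.01 and 3.70 in wild-type cells. All 3 tumors were above all wild-type arrays, most of all tumor 24, where type I collagen was also highest. Tumors averaged 6.38 ± 1.66 and wild-type cells 3.59 ± 0.54 (SD, n = 3 each). The difference was 2.79 ± 0.80 (SE), its 95% interval ran from 0.87 to 4.71, and limma gave an adjusted p of 0.103. Over 14 alternatives the adjusted p ran from 0.0436 to 0.223, and it passed in 1, the filter at the median of all genes. Without tumor 24 the difference was 1.85 (adjusted p of 0.0519 in limma). On 2 of the 3 wild-type arrays the gene was under the background mark, so the size of this difference is not settled.

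Type IX collagen, a FACIT of 3 different chains known from cartilage, differed in both directions. Col9a1 measured 3.92, 3.79 and 5.07 in the tumors, against 3.72, 3.56 and 3.54 in wild-type cells, where all values were under the mark, and tumor 25 was highest as for Col2a1 and Col11a1. The difference of Col9a1 was 0.245 without tumor 25 and 0.024 after housekeeping centring. Col9a3 measured 6.08, 5.26 and 5.57 in the tumors, against 5.15, 5.17 and 5.09 in wild-type cells, with all tumors above. Col9a2 measured 5.48, 5.36 and 5.66 in the tumors, against 6.0, 5.96 and 6.20 in wild-type cells, with all tumors below (-0.55 ± 0.17, SE, adjusted p of 0.118). After housekeeping centring Col9a2 passed as lower (adjusted p of 0.0314 in limma), so the split in direction depended in part on the scaling.

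Col8a1 had the largest negative difference of the 44. It encodes a chain of type VIII collagen, a short-chain network of vessel walls and the cornea, and measured 6.31, 7.37 and 4.96 in the tumors, against 7.62, 7.79 and 8.02 in wild-type cells. All tumors lay below all wild-type arrays, tumor 24 by little and tumor 25 by 2.66 log2 units. Tumors averaged 6.21 ± 1.21 and wild-type cells 7.81 ± 0.20 (SD, n = 3 each). The difference was -1.60 ± 0.57 (SE), its 95% interval ran from -2.97 to -0.22, and limma gave an adjusted p of 0.150. It passed in 2 of 15 alternatives, after housekeeping centring and without tumor 24 (-2.18, adjusted p of 0.0464), while without tumor 25 the difference was -0.969 (adjusted p of 0.222). Over all 15 the adjusted p ran from 0.0319 to 0.283. The wild-type arrays, which differed by 0.40 at most, were far closer to each other than the tumors, which spanned 2.42. Its partner in type VIII, Col8a2, measured 3.89, 3.55 and 3.91 in the tumors, against 4.19, 4.04 and 3.99 in wild-type cells, close to the background mark. Col10a1 lay under the mark on all 6 arrays.

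The chains of type VI collagen, beaded filaments around cells, had 1 higher and 5 lower means in tumors, the higher one, Col6a1, turning to -0.18 after housekeeping centring. Col6a1 measured 5.44, 6.23 and 5.32 in the tumors, against 5.68, 4.91 and 5.08 in wild-type cells, while the dimmer of its 2 probe sets gave -0.58. Col6a2 measured 4.79, 5.32 and 4.63 in the tumors, against 5.53, 5.30 and 5.13 in wild-type cells. Col6a3, the long chain of the heterotrimer, differed among tumors, at 4.49, 5.60 and 6.55, against 5.76, 5.26 and 5.91 in wild-type cells; tumor 23 lay below and tumor 25 above every wild-type array. Col6a4, Col6a5 and Col6a6, its alternatives, had differences of -0.14, -0.30 and -0.17; the first 2 lay under the background mark on all 6 arrays and Col6a6 on all but tumor 23. Adjusted p values over these 6 genes were at least 0.301.

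The anchoring fibril chain Col7a1 and the hemidesmosome collagen Col17a1, both known from the junction of basal keratinocytes with the underlying matrix, were high in tumor 24 alone. Col7a1 measured 4.67, 5.91 and 4.63 in the tumors, against 4.98, 4.47 and 4.72 in wild-type cells. Col17a1 measured 4.04, 6.15 and 3.94 in the tumors, against 4.83, 4.73 and 4.75 in wild-type cells, with tumors 23 and 25 below every wild-type array. Of 7 basal cell markers, 4 were highest in tumor 24 (Trp63, Krt14, Krt17 and Acta2), while Cnn1 and Oxtr were lowest there and Myh11 was highest in tumor 23. Krt14 measured 10.11, 11.64 and 7.63 in the tumors, against 9.27, 8.48 and 8.95 in wild-type cells, and Trp63 3.72, 6.93 and 4.5, against 3.93, 3.41 and 4.14. Cnn1 measured 6.92, 4.14 and 6.46 in the tumors, against 5.65, 5.69 and 6.14 in wild-type cells. Over the 7 basal markers the list means were 5.87 to 7.05 in tumors and 5.90 to 6.46 in wild-type cells; Myh11 fell (adjusted p of 0.0296) and 6 did not pass. The part of basal cells in these values was not tested. The 12 chains not described singly (Col13a1, Col14a1, Col16a1, Col19a1, Col20a1, Col22a1 to Col28a1) had differences between -0.45 and 0.49.

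As classes, the 11 fibrillar chains had a median difference of 0.50 and the 8 basement membrane chains of 0.44, both turning negative after centring on housekeeping genes (-0.12 and -0.19). The 25 other chains had a median difference of -0.17, and all 22180 genes of -0.12. Housekeeping centring moved the median of all genes to -0.74, below those 2 class medians; quantile normalization again moved it to -0.01 and cyclic loess to 0.03. Of the calls over all genes 64.5% were higher in tumors, and 7.89% after housekeeping centring. The tumors differed in these medians: against the wild-type mean, the fibrillar median was 0.18, 0.75 and -0.27 in tumors 23, 24 and 25, the basement membrane median -0.08, 0.03 and 0.35, and that of the other chains -0.17, -0.20 and -0.16. The fibrillar median was therefore highest in tumor 24, and the basement membrane median in tumor 25. Without tumor 25 the basement membrane median was -0.02, and without tumor 24 the fibrillar median was 0.25. Differences between classes were not tested.

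**Figure D3:**
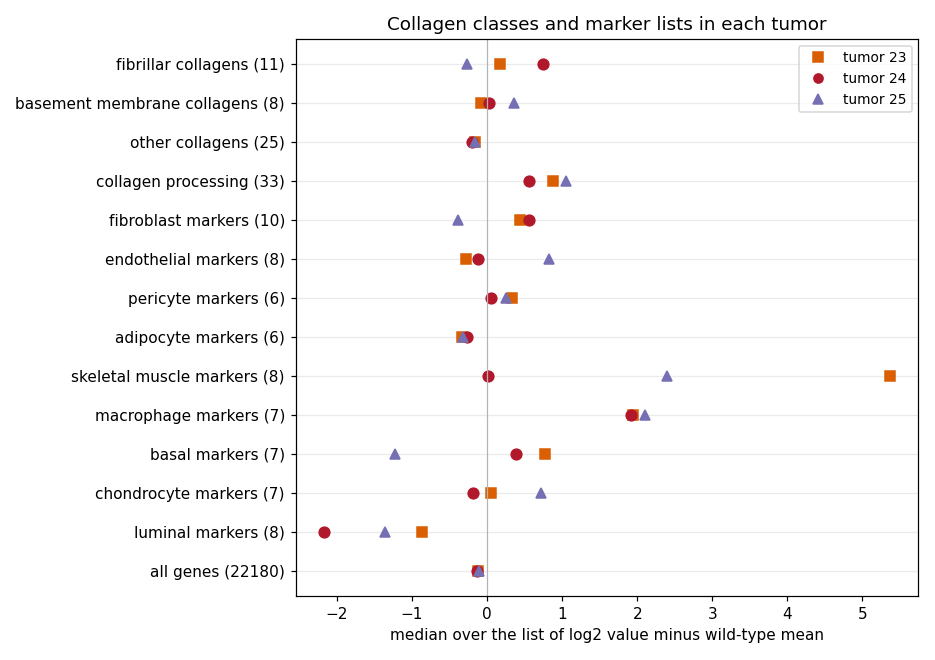
Median over each gene list of the log2 value minus the wild-type mean, for each tumor; the number of genes measured is in brackets. Fibrillar collagens lie at 0.75 in tumor 24 and -0.27 in tumor 25, basement membrane collagens at 0.35 in tumor 25, and all genes between -0.14 and -0.11.

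Markers of other cells differed among the same tumors. In bulk RNA, fewer cells of a type and less RNA per cell cannot be told apart. The median of 10 fibroblast markers against the wild-type mean was 0.44, 0.56 and -0.38 in tumors 23, 24 and 25, with list means of 4.78 to 5.59 in tumors and 4.93 to 5.41 in wild-type cells. Of these markers Pdgfrb, a receptor of fibroblasts and mural cells, rose (2.56 ± 0.43, SE, adjusted p of 0.0349 in limma), and 9 did not pass. Means were higher in tumors for 7 of the 10 markers and lower for 3, namely Dcn (-2.76), Dpt (-2.30) and Pi16 (-1.17). Dpt measured 5.40, 4.45 and 3.75 in the tumors, against 7.35, 8.14 and 5.0 in wild-type cells. Pi16, near the background mark in tumors, measured 3.25, 3.19 and 2.80 there, against 3.37, 5.67 and 3.71 in wild-type cells. Among the 9 that did not pass, Mfap5 measured 6.93, 8.20 and 3.62 in the tumors, against 4.24, 4.46 and 4.16 in wild-type cells. Mfap5, a microfibril protein, had the order of the type I chains (tumor 24, then 23, then 25), as had Fap and Thy1, 3 of the 10 markers. Dcn, Lum, Dpt and Pi16 were highest in tumor 23, Pdgfrb and Fbln1 in tumor 24, and Pdgfra in tumor 25.

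Over 8 endothelial markers the median was -0.29, -0.13 and 0.82 in tumors 23, 24 and 25, with list means of 4.22 to 5.39 in tumors and 4.26 to 4.75 in wild-type cells. The receptor Kdr measured 4.98, 4.98 and 6.09 in the tumors, against 5.0, 4.22 and 4.78 in wild-type cells, with tumor 25 highest. The endothelial cadherin Cdh5 measured 5.42, 5.98 and 7.42 in the tumors, against 7.22, 7.34 and 5.54 in wild-type cells, so tumor 25 lay just above the wild-type range. The adhesion molecule Pecam1 measured 5.58, 5.71 and 6.69 in the tumors, against 6.39, 7.10 and 5.70 in wild-type cells, and tumor 25 lay within the wild-type range. Of the 8 markers, 0 passed in limma, as 0 did at an unadjusted p under 0.05. Flt1, with the largest difference of the list, measured 4.24, 6.30 and 6.04 in the tumors, against 3.96, 4.61 and 4.36 in wild-type cells. Tumor 25 was the highest for 6 of the 8 markers, and also for Col4a1 and Col4a2. The same tumor was the highest for 4 of 6 pericyte, 5 of 7 chondrocyte and 8 of 14 housekeeping markers. The 8 skeletal muscle markers averaged 9.09, 3.55 and 6.14 in the 3 tumors; in wild-type cells these averages were 3.41 to 3.61. By limma 0 of the 8 passed (2 had an unadjusted p under 0.05), and all 8 were highest in tumor 23. That tumor was also the highest for Col4a5 and Col4a6, and for 7 of 8 luminal and 5 of 7 macrophage markers. Col4a5 was lowest in tumor 24, as the muscle average was, whereas Col4a6 was lowest in tumor 25. Adipocyte markers had list means of 3.69 to 3.99 in tumors and 4.32 to 4.71 in wild-type cells, with Adipoq, Cidec and Retn under the background mark on all 6 arrays. Fabp4 had by far the largest difference of this list (-2.87), and those of the others ran from -0.54 (Plin1) to -0.01 (Cidec). Far above its list means, Fabp4 measured 8.22, 7.08 and 6.30 in the tumors, against 10.75, 10.84 and 8.61 in the sorted wild-type cells. Macrophage markers were higher in all 3 tumors, with list means of 6.31 to 6.84 in tumors and 3.83 to 4.33 in wild-type cells, and 6 of 7 passed. Pericyte markers had list means of 4.67 to 5.31 in tumors and 4.56 to 4.78 in wild-type cells, and 0 of 6 passed, with 3 at an unadjusted p under 0.05. Of these 3, Abcc9 (1.01) and Mcam (1.53) were higher in tumors and Notch3 (-0.70) was lower. Over the 6, means were higher for 3 and lower for 3. The part of fibroblasts, vessels, muscle or macrophages in the collagen values was not tested.

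Several genes that fold, modify, cross-link or bind collagen rose in tumors. Of 38 such genes listed, 33 were measured; 6 rose (18.2%, where 2.52% of all genes did) and 0 fell in limma, with 27 higher means and a median difference of 1.04. That median was -0.12 over all genes, 0.32 over the genes averaging at least 5, and 0.79 over 14 housekeeping genes, of which 12 had higher means in tumors. Plod2, which hydroxylates lysines in collagen telopeptides, measured 7.73, 7.47 and 9.29 in the tumors, against 4.40, 3.04 and 4.35 in wild-type cells (4.24 ± 0.58, SE, adjusted p of 0.0217). Loxl3, a lysyl oxidase relative that cross-links collagen, measured 7.34, 8.13 and 8.74 in the tumors, against 4.28, 3.67 and 4.18 in wild-type cells (4.03 ± 0.38, adjusted p of 0.0117). In both genes all tumors were at least 3 log2 units above all wild-type arrays. Each lay under the background mark on 1 wild-type array, so the exact size of these differences is not settled.

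The prolyl hydroxylases P4ha1 and P3h2 rose by 2.10 ± 0.32 and 3.32 ± 0.66 (SE), with adjusted p values of 0.0275 and 0.0488. P4ha1 measured 6.14, 6.35 and 6.95 in the tumors, against 4.72, 3.84 and 4.59 in wild-type cells, and P3h2 measured 7.13, 8.20 and 9.80 in the tumors, against 4.77, 4.78 and 5.62 in wild-type cells. On 1 wild-type array P4ha1 lay under the background mark. P4ha1 makes the 4-hydroxyproline that stabilises the triple helix, and P3h2 acts mainly on basement membrane collagen. Pcolce, which enhances removal of the procollagen C-propeptide, measured 7.32, 7.07 and 8.05 in the tumors, against 5.67, 4.86 and 5.55 in wild-type cells (2.12 ± 0.34, adjusted p of 0.0308). Ddr2, a receptor kinase for fibrillar collagen, measured 7.62, 7.11 and 7.54 in the tumors, against 4.02, 4.72 and 4.29 in wild-type cells (3.08 ± 0.25, adjusted p of 0.0073). It passed in all 6 leave-one-out sets. Loxl3 passed in 5, Plod2 in 2, P4ha1 and Pcolce in 1 each and P3h2 in 0; the count of 6 was 2 without tumor 23, without wild-type replicate 1 or without replicate 2, 1 without replicate 4 and 8 without tumor 24. Tumor 25, where type I and III chains lay within the wild-type range, had the highest values of Plod2, Loxl3, P4ha1, P3h2 and Pcolce.

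Of the 27 processing genes that did not pass, Serpinh1 and Itga2 are given as examples, chosen after their values were seen. Serpinh1, a collagen chaperone, measured 5.61, 5.34 and 6.44 in the tumors, against 5.19, 3.93 and 4.64 in wild-type cells (1.21 ± 0.41, SE, adjusted p of 0.138). The collagen-binding integrin Itga2 had the largest negative difference of the list (-2.05 ± 0.77, adjusted p of 0.163), and it measured 6.11, 8.06 and 4.74 in the tumors, against 8.35, 8.61 and 8.09 in wild-type cells. It ordered the 3 tumors as Col8a1 did, with tumor 24 closest to the wild-type cells.

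**Figure D4:**
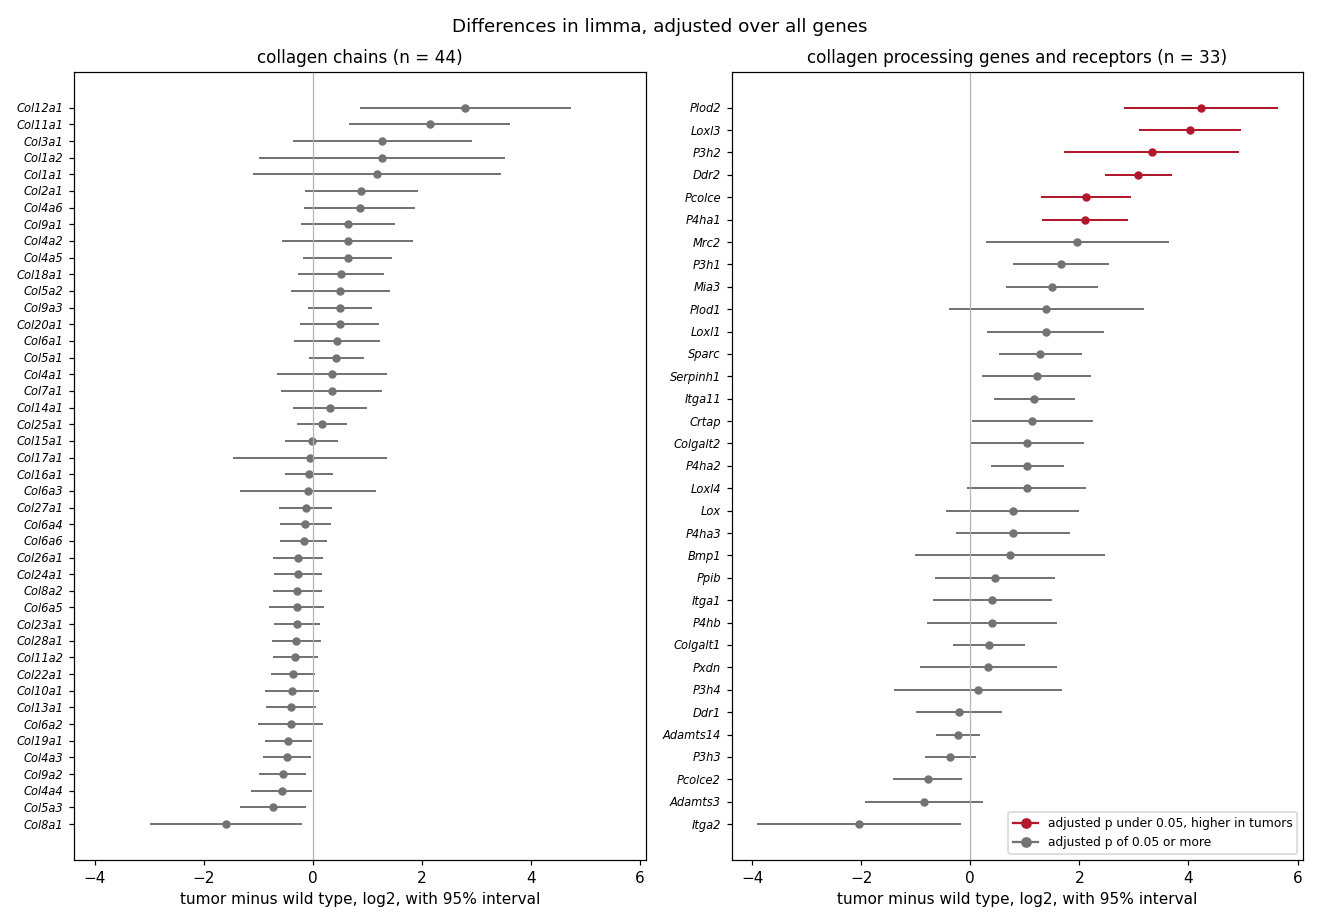
Differences, tumor minus wild type in log2 units, with 95% intervals from limma for the 44 collagen chains (left) and the 33 measured collagen processing genes and receptors (right), 3 arrays per group; red marks an adjusted p under 0.05. No chain is red, and Plod2, Loxl3, P3h2, Ddr2, Pcolce and P4ha1 are.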

How the data were processed

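Total RNA of 6 samples was amplified and labelled for microarrays, per the labels. What the authors deposited is a log2 expression value for every probe set on every array, made with RMA and oligo (per the submitters' processing notes; versions not given in the sources used here). By design RMA aims at a common distribution of the arrays, and it compresses differences near background. The deposited values did not share one distribution. Their median probe set was 3.246 to 3.565 on tumor arrays and 3.506 to 3.592 on wild-type arrays. Quantile normalization again moved the median difference over all genes from -0.116 to -0.012, so an offset between arrays remained in the values used. Of 41345 probe sets, 23521 named 1 gene, 1814 several and 16010 none in the platform annotation supplied; an Entrez identifier tied 23328 of the 23521 to a RefSeq gene (GRCm38.p6). Probe coordinates were not used here, so the part of a transcript measured is unknown.

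The comparison of tumors with wild-type cells used limma 3.58.1 in R 4.3.3, with lmFit and eBayes in 1 fit over 22180 genes, two-sided, without covariates or a filter, at an adjusted p of 0.05. Every adjusted p is from this fit or its alternatives. The step was tested on simulated data. A scan date is not given in the sources used here, so no batch was tested. The members, lists and alternatives were chosen with earlier results of these data known. Named in full are all chains of types I, III, IV, V, VI, XV and XVIII, any that pass, the 3 largest differences of each class, and processing genes that pass. The alternatives were 2 filters, 2 other choices of probe set, 3 scalings, a trended robust prior, array weights and leaving out each array. Sequences are from RefSeq.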

Additional observations from a re-analysis of the deposited data

How the results depend on the processing

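No paired analysis was possible because the groups share no replicate numbers. The count of chains called higher, 0 in limma with 8 of 44 at an unadjusted p under 0.05 in either direction, was 1 among genes averaging at least 5, 2 among genes at or above the median level, 1 after housekeeping centring and 0 to 1 in the leave-one-out sets. Fewer genes are tested under the 2 filters (7726 and 11090). The count called lower, 0, was 14 after housekeeping centring and 0 to 1 in the leave-one-out sets. Of the processing genes, the 6 called higher were 1 to 8 in the leave-one-out sets, and the 0 called lower were 4 after housekeeping centring and 0 to 1 in the leave-one-out sets. Housekeeping centring lowered tumor values against wild type because 12 of the 14 measured housekeeping genes had higher means in tumors (median difference 0.79) and Gapdh was called higher. Over all genes 867 were called, 6261 after housekeeping centring, 1324 with array weights and 72 to 1200 in the leave-one-out sets. The fibrillar median of 0.50 was 1.268 among genes averaging at least 5 (5 chains) and -0.121 after housekeeping centring, with 0.253 to 0.624 in the leave-one-out sets. The basement membrane median of 0.44 was -0.189 after housekeeping centring and -0.017 to 0.508 in the leave-one-out sets. That of the other chains, -0.17, was -0.796 after housekeeping centring and -0.270 to -0.140 in the leave-one-out sets.

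Of the alternative values of named chains, 313 kept direction and side of the threshold, 10 passed where the fit without the change did not, and 18 turned direction without passing. Turned after housekeeping centring were Col18a1 (-0.106), Col4a1 (-0.273), Col5a1 (-0.195), Col5a2 (-0.121) and Col6a1 (-0.183). With the second probe set Col5a1 gave -0.263 and Col6a1 -0.583, and with the mean of probe sets Col6a1 gave -0.070. Col15a1 gave 0.017 after cyclic loess and 0.002 with array weights, Col6a4 gave 0.127 after cyclic loess and 0.058 after quantile normalization again, and Col6a6 gave 0.070 after cyclic loess. In the leave-one-out sets Col4a1 ran from -0.127 to 0.659 and turned when tumor 25 was left out. Col15a1 ran from -0.102 to 0.103 and turned when tumor 23 (0.078) or wild-type replicate 2 was left out. Col6a3 ran from -0.600 to 0.432 and turned when tumor 23 or wild-type replicate 4 (0.037) was left out. Otherwise the cause was not tested. Values near the background mark are compressed, so differences of dim chains are the least certain.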
